A study of Mus musculus with 4 samples.

Results

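The BCL2 family decides whether a cell keeps its mitochondria intact or releases the factors that start caspase-driven death. Its survival proteins (BCL2, MCL1 and BCL-XL, the last encoded by Bcl2l1) hold back the effectors BAX and BAK1, which form pores in the outer mitochondrial membrane. The BH3-only proteins BIM (Bcl2l11), BID, BAD, PUMA (Bbc3) and NOXA (Pmaip1) report stress by binding survival proteins or by activating the effectors. Long-lived plasma cells of the bone marrow are known for their need of MCL1, which is kept up by signals of the niche, and myeloma cells often keep that need.

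These 10 genes were described in single-cell RNA counts of mouse plasma cells. All 10 were among the 24421 genes measured in every library. There were 4 libraries of cells sorted as CD138+ B220-, made with a droplet 3′ kit that counts unique molecular identifiers (UMIs), 1 for each captured mRNA molecule. A single library held plasma cells of wild-type C57/BL6 bone marrow, from control mice matched for age. The other libraries held myeloma cells of donor origin from the tumour line VQ-D2, also on C57/BL6: 2 libraries of bone marrow and 1 of lymph node. Their genotype, which the labels mark as that of a recipient, combined the V{kappa}*MYC transgene, Nras LSL Q61R/+ and IgG1-Cre, and is called VQ here. In this model Cre is driven from the IgG1 locus, so the Nras allele is switched on in cells that reach that stage, and the 3 VQ libraries all come from 1 donor line.

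The cells described were those in which Jchain, the joining chain of secreted antibodies, made up at least 5% of the UMIs in wild-type marrow and under 5% in the VQ libraries. This rule kept 687 of 781 cells: 106 of 163 in wild-type marrow, 226 of 245 and 170 of 188 in VQ marrow libraries 1 and 2, and all 185 of the lymph node. The wild-type cells nearest the threshold had Jchain at 5.51% just inside and 4.98% just outside. In the VQ marrow libraries the nearest cells were at 4.54% and 2.69% inside and at 5.93% and 5.39% outside, and the highest lymph node cell was at 1.75%. Summed over these cells, the libraries held 204002, 1045005, 444437 and 803752 UMIs in the same order, with medians per cell of 1998.5, 4700, 2646 and 3978. No cell barcode was shared between libraries.

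The labels were checked first. Sdc1, which encodes CD138, was present in each library at 1057 CPM in wild-type marrow, 647 ± 38.5 (SD, n = 2) in VQ marrow and 556 in the lymph node, where CPM are counts per 1e+06 UMIs scaled by the trimmed mean of M values (TMM). All 12 plasma cell markers had UMIs in each library, but their levels differed. Summed and before TMM scaling they were at 221444 CPM in wild-type marrow, mostly Jchain, and at 13215 to 13667 in the VQ libraries. Single markers went both ways. Tnfrsf17 was seen in 45.3% of wild-type cells and 17.7%, 18.2% and 13.5% of VQ cells, and Prdm1 in 46.2% and 22.6%, 10.6% and 24.9%. Fkbp11 was seen in 23.6% of wild-type cells and 79.2%, 69.4% and 83.2% of VQ cells. Myc stood at 41.8 CPM in wild-type marrow against 1290 ± 142 (n = 2) and 1341, and Nras at 101 against 296 ± 23.1 (n = 2) and 318. The counts are given per gene, so these levels do not tell the altered alleles from the normal ones. Ptprc, which encodes CD45 and its isoform B220, was at 251, 88.2 ± 24.4 (n = 2) and 78.3 CPM. Summed neutrophil markers differed most between libraries, at 63.7, 1004, 2918 and 1.24 CPM before TMM scaling (unscaled CPM), mainly from S100a8, S100a9, Camp and Ngp, with Elane at 0 to 1 UMIs. B cell markers, mostly Cd74, were at 2500 unscaled CPM in wild-type marrow and at 100 to 133 in the VQ libraries. In the monocyte list (1828 against 655 to 680) Adgre1, C1qa and C1qc were at 0. Cd68 went against the summed value, with 10 UMIs in wild-type marrow and 144, 49 and 76 in the VQ libraries. Cells with at least 2 markers of this list numbered 6 in wild-type marrow and 81, 32 and 46 in the VQ libraries. Which markers these cells held together was not tested. Most UMIs of the list came from Ctss, with 363 in wild-type marrow and 485, 234 and 465 in the VQ libraries. Cd68 was seen in 6.60% of wild-type cells and 39.8%, 21.8% and 27.6% of VQ cells. Lyz2, Csf1r and Fcgr3 were each seen in at most 3.98% of the cells of any library. T or NK cell markers were at 29.4 unscaled CPM in wild-type marrow and 71.8, 49.5 and 62.2 in the VQ libraries. Cells with at least 2 of them numbered 0 in wild-type marrow and 8, 4 and 1 in the VQ libraries. In the lymph node 36 of the 50 UMIs came from 1 marker, while Cd3d, Lck and Nkg7 were at 0. In VQ marrow library 1 Lck had 20 UMIs, Cd3g 14 and Cd3e 10. Cells with a UMI of at least 1 of 32 cell cycle genes made up 28.7% of the wild-type cells and 90.7%, 89.9% and 80.7% of the VQ cells, after each cell was thinned to 1000 UMIs.

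The promoters of 3 members are shown, as the sequences from which the survival gene with the largest change, the most counted survival gene and a Myc-related motif among the members are read. Each is the 250 bases before a RefSeq transcription start on GRCm38.p6, 5′ to 3′ on the gene's strand. Capitals mark GGGCGG or its complement CCGCCC, the core of the GC box, and CACGTG, the canonical E-box, which reads the same on both strands. The Bcl2 window is chr1:106714291-106714540 on the minus strand, the Mcl1 window is chr3:95658471-95658720 on the plus strand and the Bax window is chr7:45466899-45467148 on the minus strand.
Bcl2: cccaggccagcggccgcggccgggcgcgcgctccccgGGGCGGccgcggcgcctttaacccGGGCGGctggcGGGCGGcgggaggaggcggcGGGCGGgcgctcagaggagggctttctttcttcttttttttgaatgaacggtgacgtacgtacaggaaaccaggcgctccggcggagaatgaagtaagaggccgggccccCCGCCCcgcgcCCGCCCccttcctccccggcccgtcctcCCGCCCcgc
Mcl1: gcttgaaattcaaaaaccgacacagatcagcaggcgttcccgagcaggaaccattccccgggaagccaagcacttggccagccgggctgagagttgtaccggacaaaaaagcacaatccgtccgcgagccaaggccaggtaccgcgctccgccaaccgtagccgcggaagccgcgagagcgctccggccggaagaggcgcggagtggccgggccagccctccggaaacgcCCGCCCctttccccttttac
Bax: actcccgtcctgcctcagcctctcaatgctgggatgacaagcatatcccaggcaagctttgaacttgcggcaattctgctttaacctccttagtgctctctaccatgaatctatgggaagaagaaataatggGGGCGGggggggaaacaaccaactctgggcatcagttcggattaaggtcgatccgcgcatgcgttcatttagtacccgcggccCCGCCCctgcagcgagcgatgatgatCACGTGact

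The Bcl2 window held 7 GC box cores in 250 bases with a GC content of 74.8%, against 1 core and 64.4% for Mcl1 and 2 cores and 54.0% for Bax. GGGCGG, on either strand, was found in 10 of the 15 windows of the 9 members with a RefSeq entry, covering 7 members, and in 32.7% of all 32851 windows. CACGTG was found in 2 of the 15, those of Bax and Bbc3, and in 6.02% of all windows. These matches describe the letters in the window and no binding was measured.

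The first question was how the family differed between VQ myeloma cells and normal plasma cells of the marrow. Bcl2 fell, Bak1 and Pmaip1 rose, and the other 7 members did not pass the test. Counts were summed per library and fitted with edgeR's quasi-likelihood test, with p-values adjusted by Benjamini-Hochberg over 8286 genes and a threshold of 0.05. In this comparison 29.9% of all genes tested were called, 17.1% higher and 12.8% lower in VQ marrow, so 3 of 10 members is a share near the background. The members' median log2 fold change was 0.19, against 0.20 over all genes. The single wild-type library has no replicate, and the fit assumes that it varies like the VQ marrow pair, which gives the only residual degree of freedom.

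**Figure D1:**
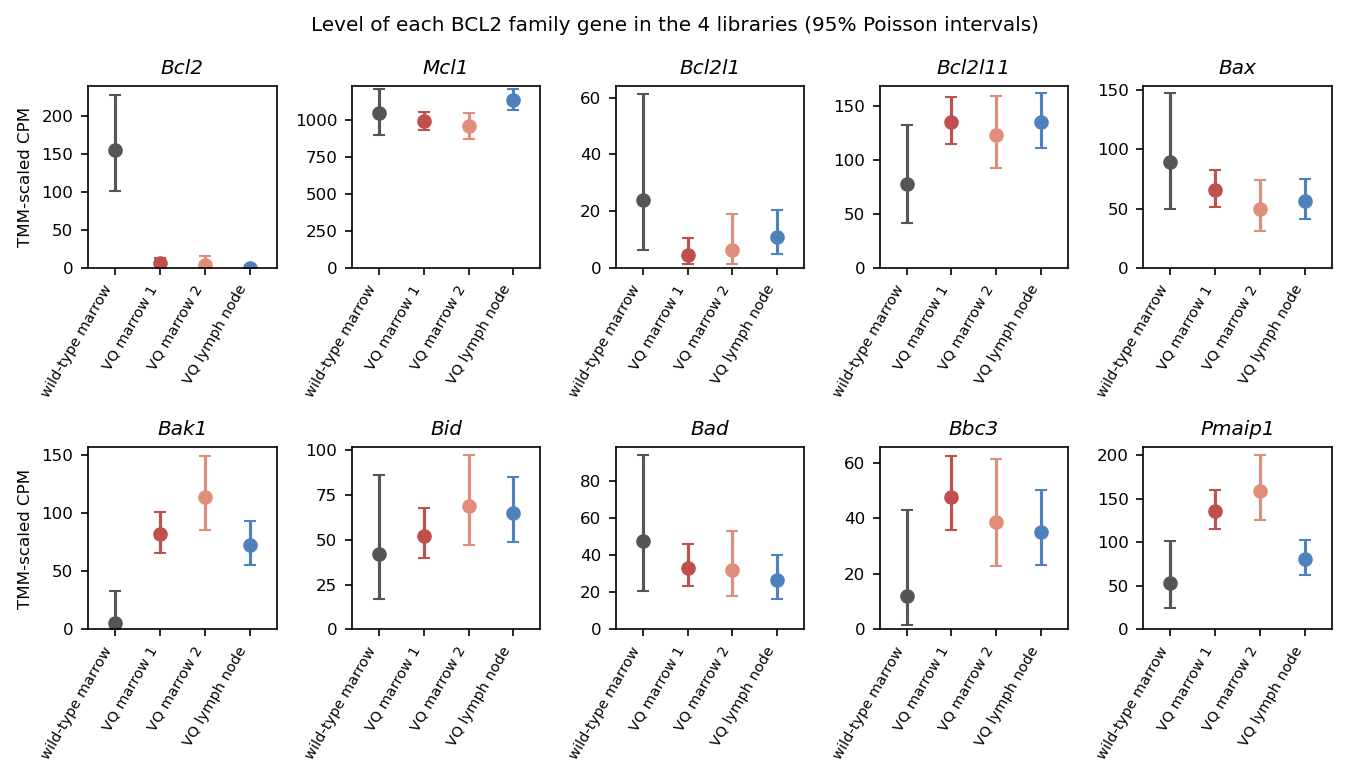
Level of each member per library, in TMM-scaled CPM on a linear axis from 0 with its own range for each gene, with exact Poisson 95% intervals that cover counting error only. Bcl2 sits at 155 CPM in wild-type marrow and at or below 6.31 in the VQ libraries, while Bak1 shows the opposite order and Mcl1 lies between 956 and 1135 CPM in all 4.

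Among the survival genes, Bcl2 had 26 UMIs in the wild-type library, 7 and 2 in VQ marrow libraries 1 and 2 and 0 in the lymph node. These counts are 155 CPM (exact Poisson 95% interval 101 to 227), 6.31 (2.54 to 13.0), 4.30 (0.521 to 15.5) and 0, where 3 counts would be 3.62 CPM. The wild-type library stood apart from all 3 VQ libraries, whose intervals overlap. Bcl2 was 27.1-fold lower in VQ marrow (counting interval 12.3 to 65.8), and the log2 fold change was −4.72 ± 0.62 (SE throughout, edgeR adjusted p = 1.46e-12). With all cells in place of those of the Jchain rule the log2 fold change was −4.01 (edgeR adjusted p = 3.12e-05), and without cells with T cell, neutrophil or erythroid markers it was −5.08 (2.38e-12).

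Bcl2 was also counted separately in cells with and without a cell cycle transcript. In cells with no cycle gene UMI, Bcl2 had 14 UMIs in 59 wild-type cells, 2 in 12 and 2 in 22 cells of the VQ marrow libraries and 0 in 20 lymph node cells. In unscaled CPM over those cells this was 135 (74.0 to 227), 162 (19.6 to 586), 143 (17.4 to 518) and 0, where 3 counts would be 62.2. The VQ marrow values there rest on 2 UMIs each, and their intervals include the wild-type level. In cells with a cycle gene UMI, Bcl2 was at 119 unscaled CPM (61.7 to 209) in wild-type marrow, 4.84 (1.57 to 11.3) and 0 (limit of 3 counts 6.97) in VQ marrow and 0 (limit 3.97) in the lymph node. The wild-type intervals with and without a cycle gene UMI overlap. Among cells with a cycle gene UMI alone Bcl2 was lower in VQ marrow by −5.28 on the log2 scale (edgeR adjusted p = 1.11e-05). In the cells without a cycle gene UMI it did not reach the filter on low counts and was not tested. At full depth 44.3% of the wild-type cells had a cycle gene UMI, while Birc5, a gene of dividing cells, had 0 UMIs in that library. Cells with a cycle gene UMI therefore need not be alike in cycle state between libraries. Shallow cells have fewer chances to show a cycle gene: the median depth of cells without such a UMI was 1855, 900.5, 498 and 2049 UMIs in the 4 libraries.

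Mcl1 had 175, 1100, 444 and 942 UMIs, or 1045, 992, 956 and 1135 CPM. The groups lay close together, with VQ marrow at 974 ± 25.4 CPM (n = 2) and a log2 fold change of −0.10 ± 0.16 (edgeR adjusted p = 0.685). The ratio of VQ to wild-type marrow has a counting interval of 0.803 to 1.10. Its direction depends on the scaling: by library totals alone the log2 fold change was 0.26, without passing the test.

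Bcl2l1 was rare everywhere, with 4, 5, 3 and 9 UMIs, or 23.9 (6.51 to 61.1), 4.51 (1.46 to 10.5), 6.46 (1.33 to 18.9) and 10.8 (4.96 to 20.6) CPM. It was lower in VQ marrow by value but did not pass the test (−2.18 ± 1.27, edgeR adjusted p = 0.192; 0.0346 with all cells). Bcl2 and Bcl2l1 reached the filter of 16.0 CPM only in the wild-type library, so both could enter the fit only by being high there.

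The make-up of the survival UMIs differed accordingly. Bcl2 gave 12.7% of the summed UMIs of the 3 survival genes in wild-type marrow (exact 95% interval 8.45 to 18.0), 0.629% and 0.445% in VQ marrow and 0% in the lymph node (limit of 3 counts 0.315%). Mcl1 gave 85.4% in wild-type marrow and 98.9%, 98.9% and 99.1% in the VQ libraries. Summed, the 3 genes stood at 1005, 1064, 1010 and 1183 unscaled CPM.

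**Figure D2:**
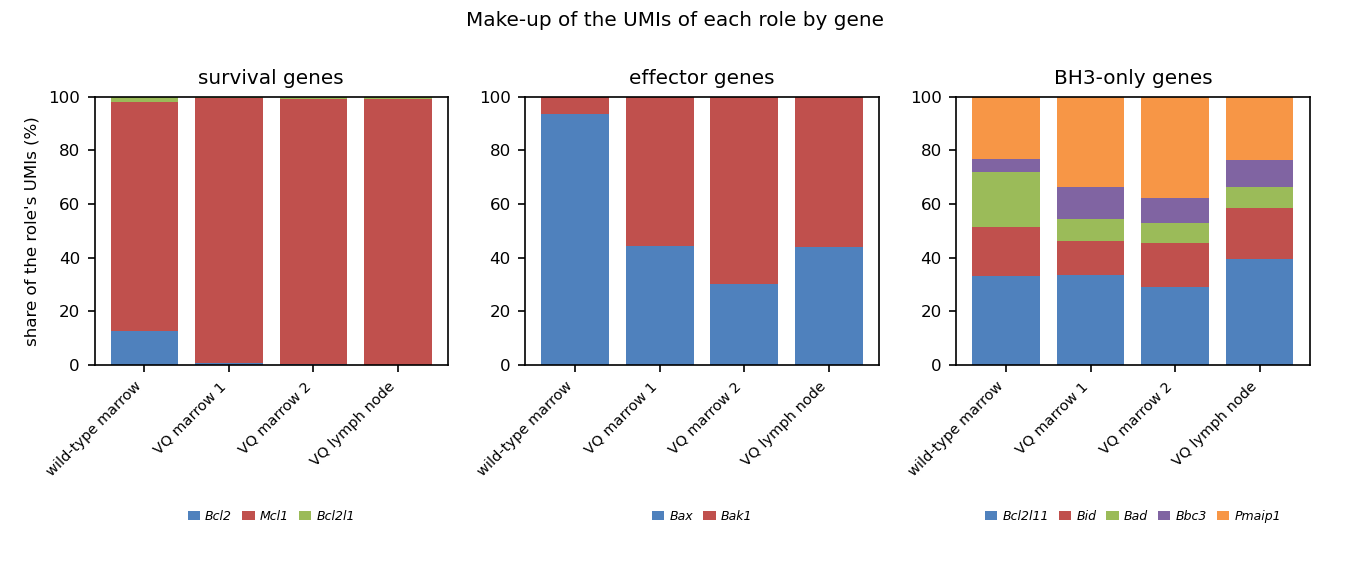
Share of the UMIs of each role held by each gene, in percent, for the 4 libraries. Bcl2 is 12.7% of the survival UMIs in wild-type marrow and under 1% in the VQ libraries, and Bak1 goes from 6.25% of the effector UMIs to between 55.5% and 69.7%.

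Of the effectors, Bak1 was counted once in wild-type cells (1 UMI), against 91, 53 and 60 UMIs for VQ. This was 5.97 CPM (0.151 to 33.3) against 82.0 (66.0 to 101), 114 (85.4 to 149) and 72.3 (55.2 to 93.1), so that no VQ library's interval reached the wild-type one. Bak1 was higher in VQ marrow at 98.0 ± 22.7 CPM (n = 2), by a log2 fold change of 3.93 ± 0.82 (edgeR adjusted p = 3.49e-05). The ratio was 15.3, with a counting interval of 2.71 to 609 because of the single wild-type UMI. With all cells, where 3 more wild-type UMIs enter, the log2 fold change was 2.86, and by DESeq2 the adjusted p was 0.0904.

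In cells with a cycle gene UMI, Bak1 had 0 UMIs in wild-type marrow (limit of 3 counts 29.8 unscaled CPM), against 88.1, 121 and 75.4 unscaled CPM for VQ. In cells without one it had 1, 0, 1 and 3 UMIs, too few to compare. On the map of GRCm38 (GENCODE vM21), Bak1 lies at chr17:27019810-27029009 on the minus strand and shares exon bases with Ggnbp1 on the other strand. Whether the counting used strand is not given in the sources used here, so reads of the pair could not be told apart without it. The same holds for Bid with Bcl2l13 and for Bad with Gpr137.

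Bax had 15, 73, 23 and 47 UMIs, or 89.5 (50.1 to 148), 65.8 (51.6 to 82.7), 49.5 (31.4 to 74.3) and 56.6 (41.6 to 75.3) CPM. All 4 intervals overlap, and VQ marrow at 57.6 ± 11.5 CPM (n = 2) did not differ by the test (−0.57 ± 0.43, edgeR adjusted p = 0.326). Of the effector UMIs, Bak1 made up 6.25% in wild-type marrow (0.158 to 30.2) and 55.5% (47.5 to 63.2), 69.7% (58.1 to 79.8) and 56.1% (46.1 to 65.7) for VQ. Bak1 and Bbc3 reached the filter on low counts only in VQ libraries.

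Among the BH3-only genes, Pmaip1, the sensitizer NOXA that binds MCL1, had 9, 151, 74 and 67 UMIs. Its levels were 53.7 CPM (24.6 to 102) in wild-type marrow, 136 (115 to 160) and 159 (125 to 200) in VQ marrow and 80.7 (62.6 to 103) in the lymph node. Both VQ marrow libraries were above the other 2, whose intervals overlap. VQ marrow, at 148 ± 16.4 CPM (n = 2), was 2.66-fold above wild-type marrow (counting interval 1.38 to 5.89), a log2 fold change of 1.43 ± 0.42 (edgeR adjusted p = 0.00441). 3 settings ended this call, among them DESeq2 (adjusted p = 0.263) and sums of cells thinned to 1000 UMIs, where the log2 fold change was 2.55 (edgeR adjusted p = 0.0614).

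Bbc3, which encodes PUMA, a target of p53, had 2, 53, 18 and 29 UMIs. Its levels were 11.9 CPM (1.45 to 43.1) against 47.8 (35.8 to 62.5), 38.7 (23.0 to 61.2) and 34.9 (23.4 to 50.2). The wild-type value was the lowest and its interval overlaps all 3 others. The difference missed the threshold at a log2 fold change of 1.89 ± 0.83 (edgeR adjusted p = 0.0691). It passed with library totals (edgeR adjusted p = 0.0189), with all cells (0.0126) and with cells that had a cycle gene UMI (0.0257), where the wild-type library had 0 UMIs.

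Bcl2l11, whose product BIM activates BAX and BAK1 directly, had 13, 150, 57 and 112 UMIs, or 77.6 (41.3 to 133), 135 (114 to 159), 123 (92.9 to 159) and 135 (111 to 162) CPM. The VQ libraries were close to each other at 129 ± 8.87 CPM in marrow (n = 2), and the log2 fold change from wild-type marrow of 0.75 ± 0.39 missed the threshold (edgeR adjusted p = 0.134). It passed with library totals (edgeR adjusted p = 0.0123) and with all cells (0.0180).

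Bid, the link from death receptors to mitochondria, had 7, 58, 32 and 54 UMIs, or 41.8 (16.8 to 86.1), 52.3 (39.7 to 67.6), 68.9 (47.1 to 97.2) and 65.1 (48.9 to 84.9) CPM. Bad, whose product is held inactive by survival kinases, had 8, 37, 15 and 22 UMIs, or 47.8 (20.6 to 94.1), 33.4 (23.5 to 46.0), 32.3 (18.1 to 53.2) and 26.5 (16.6 to 40.1) CPM. The intervals of all 4 libraries overlap for each gene. Neither passed the test between VQ and wild-type marrow, with log2 fold changes of 0.47 ± 0.55 for Bid (edgeR adjusted p = 0.560) and −0.53 ± 0.59 for Bad (0.528), and each changed sign under some settings. Of the summed BH3-only UMIs, Bad gave 20.5% in wild-type marrow (9.30 to 36.5), from 8 of 39 UMIs. In the VQ libraries it gave 8.24% (5.87 to 11.2), 7.65% (4.35 to 12.3) and 7.75% (4.92 to 11.5), and each of these intervals overlaps the wild-type one. Pmaip1 gave 23.1% (11.1 to 39.3), 33.6% (29.3 to 38.2), 37.8% (30.9 to 44.9) and 23.6% (18.8 to 29.0).

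**Figure D3:**
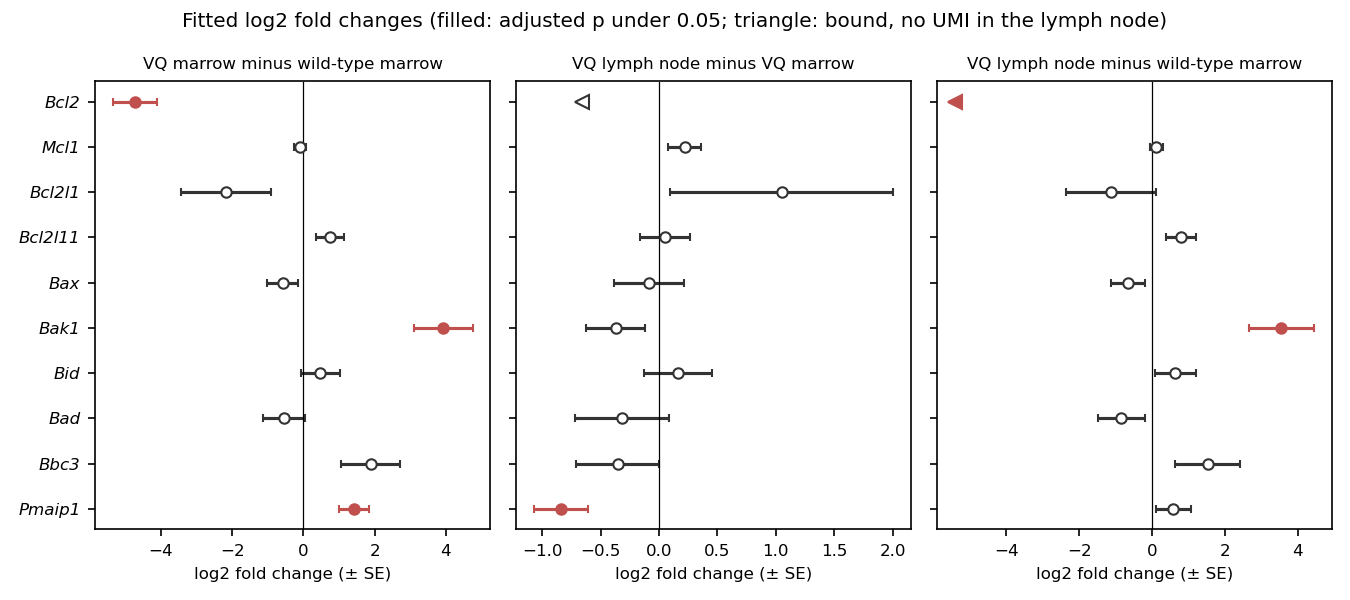
Log2 fold change of each member in the 3 comparisons, with its standard error and filled points for adjusted p under 0.05. Where the lymph node had 0 UMIs, triangles stand at the fold against 3 counts, which leaves out counting error on the other side. Bcl2 and Bak1 lie farthest from 0 against wild-type marrow, and Pmaip1 is the only filled point between the VQ sites.

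The next question was how VQ cells of the lymph node differed from those of the marrow. Pmaip1 was the member that fell, from 148 ± 16.4 CPM (n = 2) in marrow to 80.7 in the lymph node, by 1.77-fold (counting interval 1.34 to 2.36) and −0.84 ± 0.23 on the log2 scale (edgeR adjusted p = 0.0132). It was lower than in each marrow library. Of all genes tested 3.13% were called in this comparison, 1.86% higher and 1.27% lower, against 1 of 10 members. The lymph node was sampled in 1 library, and the call was lost without the Jchain rule (edgeR adjusted p = 0.126), with a 2.5% threshold (0.056), by DESeq2 (1.0), with a preset coefficient of variation (1.0) and with thinned sums (0.723).

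None of the other 9 members passed between the VQ sites. Bcl2 had 0 UMIs in the lymph node against 9 in marrow (edgeR adjusted p = 0.211). The marrow level was 1.58 times that of 3 lymph node counts, leaving out counting error in the 9 UMIs, and the exact intervals overlap. Mcl1 was 1.16-fold higher by value (counting interval 1.07 to 1.26) with a log2 fold change of 0.22 (edgeR adjusted p = 0.580). Bak1 differed by −0.37 (edgeR adjusted p = 0.608), Bbc3 by −0.35 (0.777), Bad by −0.31 (0.839) and Bax by −0.08 (0.956). Bcl2l1, Bid and Bcl2l11 differed by 1.05 (edgeR adjusted p = 0.743), 0.16 (0.889) and 0.05 (0.968). The members' median was −0.20, against −0.02 over all genes.

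The lymph node was also set beside wild-type marrow. These values share the wild-type library with the first comparison and are no separate support for it. Bcl2 was lower, with 0 against 26 UMIs (edgeR adjusted p = 1.30e-13). Its wild-type level was 42.9 times that of 3 lymph node counts, leaving out counting error in the 26 UMIs. Bak1 was higher by 3.56 ± 0.89 on the log2 scale (edgeR adjusted p = 7.10e-04), a ratio of 12.1 (counting interval 2.09 to 486). The share of genes called was 28.7%, with 16.4% higher and 12.2% lower, against 2 of 10 members. Pmaip1, at 80.7 against 53.7 CPM, did not pass here (0.59, edgeR adjusted p = 0.381), nor did Mcl1 (0.12, 0.659), Bcl2l11 (0.80, 0.129), Bbc3 (1.53, 0.192), Bid (0.64, 0.415), Bax (−0.66, 0.291), Bad (−0.84, 0.336) or Bcl2l1 (−1.12, 0.519). With library totals Mcl1 (edgeR adjusted p = 0.0471) and Bcl2l11 (0.0173) passed, and with all cells Mcl1 (0.0228), Bcl2l11 (0.0194) and Bbc3 (0.0347) did. The call of Bak1 was lost by DESeq2 (adjusted p = 0.204), with thinned sums (edgeR adjusted p = 0.132) and with a preset coefficient of variation (0.121).

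Shares of cells with a UMI follow depth, so they are given first as counted and then with each cell thinned to 1000 UMIs. Thinning left 87 wild-type cells, 171 lymph node cells and up to 204 in a VQ marrow library. The 1000 UMIs include Jchain, which before thinning made up 20.4% of the wild-type UMIs and 0.500% to 0.572% in the VQ libraries. Thinned wild-type cells therefore hold fewer UMIs of other genes, which lowers their shares. As counted, Bcl2 was seen in 21 of 106 wild-type cells (19.8%, exact 95% interval 12.7 to 28.7), in 3.10% and 1.18% of the VQ marrow cells and in 0 of 185 lymph node cells, which allows up to 1.62% at a limit of 3 counts. Thinned, the shares were 9.20% (4.05 to 17.3), 0.980% (0.119 to 3.50), 0.725% (0.0183 to 3.97) and 0 of 171, which allows up to 1.75%. The wild-type library was the highest both ways, although its cells were the shallowest as counted and held fewer UMIs other than Jchain when thinned. Mcl1 was seen in 66.0%, 89.4%, 80.0% and 92.4% of cells as counted and in 50.6% (39.6 to 61.5), 65.2% (58.2 to 71.7), 61.6% (52.9 to 69.7) and 64.3% (56.7 to 71.5) of thinned cells.

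Bak1 was seen in 0.943%, 29.6%, 23.5% and 26.5% of cells as counted. After thinning it was in 0 of 87 wild-type cells, which allows up to 3.45%, and in 6.37% (3.44 to 10.7), 13.8% (8.50 to 20.7) and 8.77% (4.99 to 14.1) of the VQ cells. At 500 UMIs per cell the Bak1 shares were 0 of 100 wild-type cells, which allows up to 3.0%, and 6.33%, 6.62% and 2.70% of the VQ cells, so that the lymph node was not above the wild-type limit. Pmaip1 went from 8.49%, 40.3%, 29.4% and 23.8% to 2.30% (0.280 to 8.06), 15.2% (10.6 to 20.9), 13.0% (7.92 to 19.8) and 11.1% (6.82 to 16.8). Its wild-type interval overlaps those of VQ marrow library 2 and the lymph node. At 500 UMIs per cell the Pmaip1 shares were 3.00%, 3.17%, 9.27% and 3.78%, so the order of libraries 1 and 2 was not kept and the gap to wild-type marrow was small in all but VQ marrow library 2.

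Bax, Bid and Bad had thinned shares that lay close together. Bax was seen in 5.75%, 4.90%, 5.80% and 3.51% of thinned cells, Bid in 5.75%, 5.39%, 6.52% and 6.43%, and Bad in 5.75%, 3.92%, 3.62% and 4.68%. Bcl2l11 was seen in 6.90% (2.57 to 14.4), 14.2% (9.73 to 19.8), 8.70% (4.57 to 14.7) and 12.3% (7.77 to 18.2). As counted, Bcl2l11 had been in 11.3%, 38.9%, 25.9% and 36.2%, and its thinned intervals overlap in all 4 libraries. Bbc3 was seen in 1.15%, 3.43%, 2.17% and 4.09% of thinned cells, and Bcl2l1 in 2.30%, 0%, 0.725% and 0%.

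By role, thinned cells with a UMI of any BH3-only gene made up 19.5% (11.8 to 29.4) in wild-type marrow, 35.8% (29.2 to 42.8) and 24.6% (17.7 to 32.7) in VQ marrow and 32.7% (25.8 to 40.3) in the lymph node. Effectors were seen in 5.75% (1.89 to 12.9), 10.8% (6.88 to 15.9), 19.6% (13.3 to 27.2) and 12.3% (7.77 to 18.2). In both roles the wild-type share was the lowest, and in each its interval overlaps that of at least 1 VQ marrow library.

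**Figure D4:**
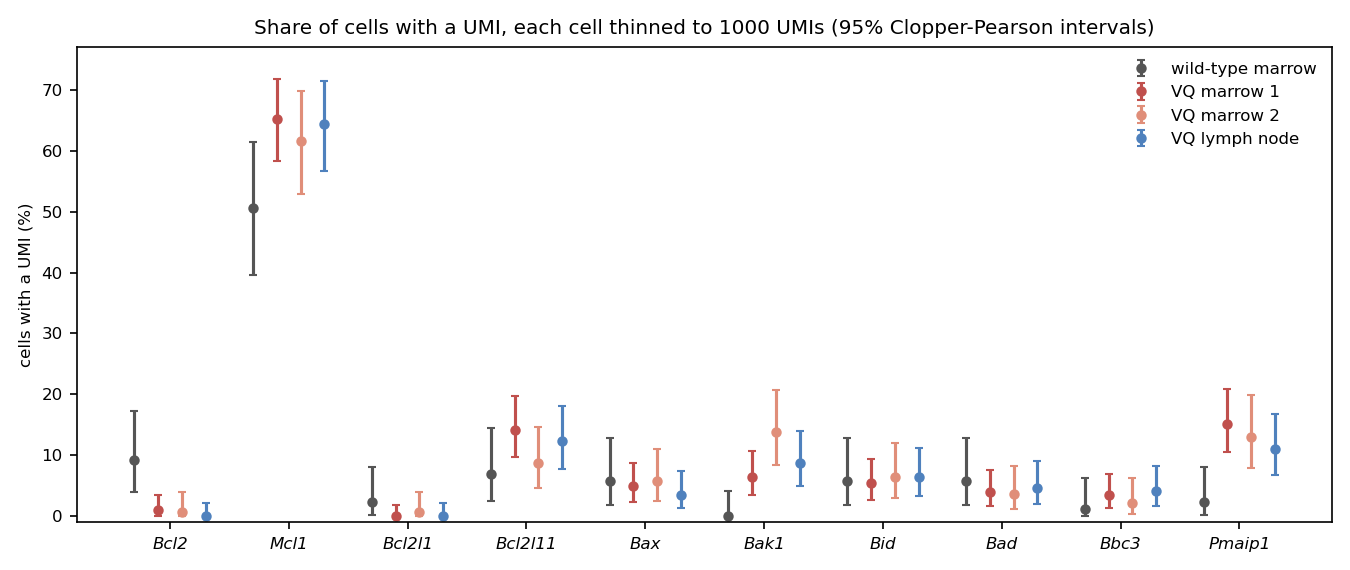
Share of cells with at least 1 UMI of each member, in percent, after thinning each cell to 1000 UMIs, with exact 95% intervals for the 4 libraries. The libraries lie close together for Bax, Bid and Bad, while Bcl2 is highest in wild-type marrow at 9.20% and Bak1 lowest at 0 of 87 cells.

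Other genes of the pathway were read from 4 lists, chosen with earlier results of these data known, so counts of calls in them are descriptive only. Over all genes tested 17.1% were called higher and 12.8% lower in VQ than in wild-type marrow. Of 15 other BCL2 family genes 6 passed the filter on low counts, and between VQ and wild-type marrow only Bnip3l, a mitophagy receptor, was called, at 30.3 ± 5.86 (n = 2) against 107 CPM (−1.89, edgeR adjusted p = 5.37e-04). Among 21 mitochondrial apoptosis genes, 3 rose and 2 fell, with a median log2 fold change of 0.09 against 0.20 over all genes. Birc5, which encodes survivin and is known as a gene of dividing cells, was at 136 ± 14.2 CPM (n = 2) against 0 (edgeR adjusted p = 2.44e-09). Its VQ marrow level was 7.38 times that of 3 wild-type counts. Vdac1, an outer membrane channel, rose from 77.6 to 311 ± 28.5 CPM (n = 2), and Htra2, a protease released from mitochondria, from 35.8 to 106 ± 10.3 CPM (n = 2, edgeR adjusted p = 0.00697). Birc2 and Birc3, which encode the ubiquitin ligases cIAP1 and cIAP2, each fell by 1.94 on the log2 scale, to 27.4 ± 8.37 and 23.9 ± 9.50 CPM (n = 2). Of the alternatives that tested them, the call was made in 13 of 13 for Birc5, 11 of 14 for Vdac1, 9 of 13 for Htra2, Birc2 and Bnip3l, and 10 of 12 for Birc3.

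Of 11 death receptor genes 10 were tested: Fas fell from 59.7 to 3.95 ± 0.494 CPM (n = 2, edgeR adjusted p = 5.25e-04), and Tnfrsf1a, a receptor for TNF, rose by 2.07 on the log2 scale (0.0345), a call kept in 6 of 12 alternatives. The list's median was −0.19. Over all genes tested 17.1% rose and 12.8% fell. Of 26 genes known to act upstream of the members, a list chosen with earlier results known, 24 were tested, of which 2 rose and 9 fell, with a median of −0.65. Those that rose were Myc, by 4.94, and Trp53, which encodes p53, from 59.7 to 128 ± 16.6 CPM (n = 2, edgeR adjusted p = 0.0264). Trp53 changed sign to −0.54, without passing the test, when all cells were used, and was called in 7 of 13 alternatives. The largest falls were those of Ddit3, which encodes the stress factor CHOP, from 95.5 to 2.25 ± 3.19 CPM (n = 2), and of the kinase genes Pim2, from 263 to 9.09 ± 3.72 CPM, and Pim1, from 275 to 27.7 ± 3.46 CPM. Fas and Ddit3 reached the filter of 16.0 CPM only in the wild-type library, so both could enter the fit only by being high there. Birc5 and Tnfrsf1a, with 0 and 2 wild-type UMIs, reached it only in VQ libraries.

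Between lymph node and VQ marrow, 3 genes of these lists were called and all were higher: Stat3 at 104 against 46.7 ± 0.973 CPM (n = 2, edgeR adjusted p = 9.95e-04), Bcl2l15 at 54.2 against 24.4 ± 5.12 (n = 2, 0.0309) and Tnfsf10, which encodes TRAIL, by 0.78 on the log2 scale (0.0416). Stat3 was called in 10 of 14 alternatives and Bcl2l15 in 5 of 11, and Tnfsf10 was not called under any of the 13 alternative settings that tested it. Against wild-type marrow, the lymph node had 1 other BCL2 family gene lower, Bnip3l by a log2 fold change of −2.88. Of the mitochondrial genes 4 were higher, among them Birc5, at 9.22 times the level of 3 wild-type counts. Cycs (cytochrome c) was higher by 2.35 and Vdac1 by 2.01 on the log2 scale, and Birc2 (−2.38) and Birc3 (−1.93) were lower. Cycs, with 2 wild-type UMIs, and Birc5 reached the filter on low counts only in VQ libraries. Of the death receptor genes Tnfrsf1a was higher (2.26) and Fas (−2.61) and Tradd (−1.62) were lower, called in 7 of 13, 7 of 11 and 2 of 12 alternatives in that order. Of the upstream genes Myc was higher, at 1341 against 41.8 CPM, and 8 were lower, led by Ddit3 (−4.65), Tnfrsf17 (−3.59), which encodes the plasma cell survival receptor BCMA, and Pim2 (−3.17). The limits of the filter given above for Fas, Ddit3 and Tnfrsf1a hold here too. The medians of the 4 lists were 0.27, 0.15, −0.30 and −0.50, against 0.18 over all genes. Over all genes tested 1.86% were called higher and 1.27% lower between the VQ sites, and 16.4% and 12.2% between lymph node and wild-type marrow.

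The tested genes nearest in pattern to the 3 called members were found by Euclidean distance of centred log2 CPM over the 4 libraries. Bcl2 was nearest to Irf2bp2 (distance 0.559), at 125, 9.01, 6.46 and 0 CPM, and to Dock10 (0.566), at 185, 7.21, 2.15 and 0 CPM. Bak1 was nearest to Gatm (0.140), at 0, 27.0, 40.9 and 21.7 CPM, and to Bub1 (0.195), a gene of the mitotic checkpoint, at 0, 27.0, 38.7 and 27.7 CPM. Pank2 was among the 2 genes nearest to Pmaip1 (0.181), at 17.9, 53.2, 64.6 and 33.7 CPM.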

How the data were processed

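The deposited tables hold unnormalized counts of UMIs for each gene in each cell, made by the authors with a ddSEQ isolator and a SureCell 3′ kit per the labels' protocols and on mm10 per the submitters' processing notes. The aligner and counter are not given in the sources used here. The members and all lists were chosen with earlier results of these data known. Counts were summed per library over the cells of the Jchain rule and tested in edgeR 4.0.16 (R 4.3.3: TMM, filterByExpr, quasi-likelihood test) in 1 fit of 3 groups with 1 residual degree of freedom. SEs are the log2 fold change over the root of F. Simulated data for VQ against wild-type marrow (8286 genes) gave 18 of 100 2-fold and 87 of 100 4-fold genes, with 4 false among 109 calls. All simulated libraries, the wild-type one included, had the fitted coefficient of variation of 0.0928, and genes of low expected count were not changed. The simulation therefore cannot show how many calls are false if the wild-type library varies more, nor the power for rare genes. The labels do not say that the VQ marrow pair came from separate animals, so the p-values rest on how far these 2 libraries differ, and that may be a technical difference only. Their chi-square over degrees of freedom was 1.64 over 8126 genes.

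CPM are UMIs over the TMM-effective total where so named. Intervals are exact (95%, Poisson, Clopper-Pearson or conditional binomial) and cover counting error only. A count of 0 is given a limit of 3 counts in the text and its exact interval in the figures of levels and shares. Folds against 3 counts leave out the counting error of the other side and are no exact bounds. Cells with at least 2 markers of 1 other type were kept. They were 27 of 106 in wild-type marrow, 91 of 226 and 40 of 170 in VQ marrow and 47 of 185 in the lymph node. No doublet caller was run. In sums of cells, fewer cells with a transcript and fewer transcripts per cell cannot be told apart. All members were named, with up to 3 called genes per direction of each other list, 2 nearest genes per called member and the label checks. 1 of the nearest genes and 1 marker are not reported here. Alternatives used DESeq2 1.42.0, other Jchain thresholds (2.5% and 10%), other filters, scaling, thinning and a preset coefficient of variation of 0.4. Leaving out cells with T, neutrophil or erythroid markers, totals without Jchain and the split by 32 cycle genes were added after seeing the data. Figures and summaries used Python 3.11.15, numpy 2.4.6, scipy 1.17.1, pandas 2.3.3 and matplotlib 3.10.9. Motifs were searched in RefSeq windows of GRCm38.p6, with 9 of 10 members matched.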

Additional observations from a re-analysis of the deposited data

How the results depend on the processing

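The number of genes called was 2478 between VQ and wild-type marrow, 259 between VQ lymph node and marrow and 2375 between lymph node and wild-type marrow. In that order it was 499, 23 and 401 by DESeq2, 513, 30 and 327 with a preset coefficient of variation of 0.4, 401, 2 and 327 with cells thinned to 1000 UMIs and 47, 34 and 28 without cells with a cycle gene, where 951 genes were tested. Between the VQ sites it was 158 with a Jchain threshold of 2.5%, 107 without the rule and, to 2 digits, 1.4e+02 (90 higher and 48 lower) without cells with markers of another type. Library totals moved the median of all genes by 0.36 and 0.33 in the comparisons with wild-type marrow and the share of calls that were higher from 57.3% to 75.0% and from 57.3% to 73.8%; by DESeq2 it was 47.1% in the latter. Bcl2 was called against wild-type marrow in each alternative that gave it an adjusted p, 11 of 11 for VQ marrow (3.43e-15 to 3.12e-05) and 12 of 12 for lymph node (1.16e-16 to 0.00167). Mcl1 was given one in 14 alternatives, so some left Bcl2 untested, among them the setting without cells with a cycle gene. There Bcl2 was at 162 and 143 unscaled CPM in VQ marrow, from 2 UMIs each, against 135 in wild-type marrow. Bak1 was called in 11 of 13 and 10 of 13, and Pmaip1 in 10 of 13 for VQ against wild-type marrow and 8 of 13 between the VQ sites. None of the sign-changed values of members below passed the test, and no such member was called in the same comparison in the report. For VQ against wild-type marrow, Mcl1 was at 0.26 with library totals, 0.37 without the Jchain rule, 0.040 without other types' markers and 0.074 in cells with a cycle gene; Bid at −0.21 without the rule and −0.22 thinned; Bad at 0.36 without other types' markers and 0.047 in cells with a cycle gene; and the called genes Trp53 and Bnip3l at −0.54 without the rule and 0.29 without cells with a cycle gene. For lymph node against wild-type marrow, Mcl1 was at −0.12 without such cells, and Bid at −0.029 without the rule and −0.19 thinned. Between the VQ sites, Bcl2l11 was at −0.016 without other types' markers and −0.0080 in cells with a cycle gene, and the called gene Stat3 at −0.51 without such cells. The cause was not tested. Without VQ marrow replicate 1 or 2 no residual degree of freedom remained, so values have no test: between −5.13 and −4.58 for Bcl2, 3.75 and 4.16 for Bak1 and 1.35 and 1.53 for Pmaip1 against wild-type marrow. No paired analysis was possible because only the VQ marrow libraries carry replicate numbers.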

Other observations

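The cells that the Jchain rule left out of VQ marrow, 19 and 18 in libraries 1 and 2, had Jchain at 5% or more of their UMIs. Bcl2 was at 91.4 and 393 CPM (not TMM-scaled) in them, from 2 and 5 UMIs, which is 13.6 times (counting interval 1.38 to 71.7) and 87.3 times (14.3 to 917) the level in the cells the rule kept in the same library. Myc had 4 and 0 UMIs there, or 183 and 0 CPM against 1263 and 1454 in the kept cells. Mcl1 had 33 and 18 UMIs, or 1508 and 1415 CPM against 1053 and 999. Bak1 had 1 UMI in each, Pmaip1 1 and 0, and Bbc3 0 in both.

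In wild-type marrow the rule left out 57 cells with Jchain under 5%. Bcl2 had 26 UMIs there as well, at 191 CPM. Myc had 64 UMIs there, or 470 CPM, against 7 UMIs and 34.3 CPM in the kept wild-type cells (ratio 13.7, counting interval 6.27 to 35.4). The low Myc level of the wild-type library thus holds only for the cells of the rule. Mcl1 was lower than in the kept wild-type cells, at 484 CPM from 66 UMIs (ratio 0.565, counting interval 0.419 to 0.754), and Bid was higher, at 103 CPM from 14 UMIs (ratio 2.99, 1.13 to 8.77). These ratios compare cells of 1 library and cover counting error only.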
